A study of Homo sapiens with 16 samples.

Results

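Broad H3K27me3 domains were taken as the peaks of the deposited WT list that were at least 30 kb wide, and 340 of its 3790 peaks met that width. The 4 H3K27me3 lists of the series held 13942 peaks in all. The domains spanned 18.4 Mb of the 55.7 Mb under WT peaks, so 8.97% of the peaks held 33.1% of the bases. They were selected on their width in WT, and that width is given as a description with no test.

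Peaks came from ChIPmentation, a form of ChIP-seq whose sequencing adaptors are put on the bound chromatin by a transposase. The cells were TKO, a derivative of the multiple myeloma line KMS-11 labelled as a plasma cell with the genotype WHSC1(+/-), and all groups share this genotype. WHSC1 is another name of NSD2. Cells labelled WT carried wild type NSD2, cells labelled D1240A or F1295A carried NSD2 with that amino acid substitution, and the plain TKO cells are labelled with no form. The series has 16 samples with no treatment named: for each of the 4 forms there are 2 for H3K27me3 and 1 for H3K4me3, plus an IgG control that is not analysed here. The labels give neither the level of each form nor whether a form stands for a single clone, and 1 cell line limits what the groups model. Both H3K27me3 samples of a form share 1 list, so no difference below has a replicate check and no p-value is given. The read depth behind the peaks is not known. Shares are given with exact 95% intervals by the Clopper-Pearson method, which cover counting error only, and neighbouring domains are not independent.

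H3K27me3 is written by Polycomb repressive complex 2, PRC2, and marks silent genes. The complex can bind the mark it makes and so extend it along the chromosome, which is how domains much wider than a promoter can form over developmental gene clusters. NSD2 methylates H3K36, a mark of transcribed and intergenic chromatin on which PRC2 works poorly. In myeloma with the t(4;14) translocation NSD2 is overproduced, and H3K27me3 is known to be redistributed in such cells. H3K4me3 is a mark of active and poised promoters, and a promoter that carries both marks is often called bivalent.

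The promoters of 5 genes inside the domains show the kinds of region the domains hold. LRP1, the endocytic receptor of lipoproteins and proteases, lay in a domain that had no TKO peak. GATA2, a transcription factor of blood stem cells, lay in a domain with H3K4me3 in 2 of the 4 forms. PAX2, a factor of kidney development, and SSTR5, a somatostatin receptor, lay in domains of over 100 kb that every form kept in large part. KRT79, an epithelial keratin, lay in a domain of which D1240A kept a small part, and that part held the KRT79 start. Each sequence is the 250 bases before a RefSeq start (GRCh38.p14), read 5′ to 3′ on the strand of the gene, with each CG dinucleotide, the site of DNA methylation, in capitals.
LRP1: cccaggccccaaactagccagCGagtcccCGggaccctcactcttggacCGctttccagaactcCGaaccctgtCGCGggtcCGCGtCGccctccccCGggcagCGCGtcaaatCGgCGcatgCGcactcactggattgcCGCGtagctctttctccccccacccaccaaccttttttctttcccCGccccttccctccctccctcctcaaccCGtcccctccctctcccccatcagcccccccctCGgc
GATA2: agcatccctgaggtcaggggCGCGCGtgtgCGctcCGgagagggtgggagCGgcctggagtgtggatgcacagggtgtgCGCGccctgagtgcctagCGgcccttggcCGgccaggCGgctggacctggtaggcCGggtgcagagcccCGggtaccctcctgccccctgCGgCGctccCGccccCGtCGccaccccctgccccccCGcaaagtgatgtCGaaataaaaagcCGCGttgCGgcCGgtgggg
PAX2: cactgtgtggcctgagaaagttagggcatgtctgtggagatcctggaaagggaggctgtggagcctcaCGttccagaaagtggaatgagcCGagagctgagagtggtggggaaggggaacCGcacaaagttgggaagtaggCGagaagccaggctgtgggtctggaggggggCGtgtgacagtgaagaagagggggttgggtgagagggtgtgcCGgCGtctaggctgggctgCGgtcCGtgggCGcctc
SSTR5: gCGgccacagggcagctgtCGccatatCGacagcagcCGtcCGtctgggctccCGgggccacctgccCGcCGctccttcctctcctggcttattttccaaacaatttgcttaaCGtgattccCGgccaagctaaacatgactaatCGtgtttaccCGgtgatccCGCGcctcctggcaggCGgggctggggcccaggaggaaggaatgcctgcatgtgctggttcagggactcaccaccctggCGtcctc
KRT79: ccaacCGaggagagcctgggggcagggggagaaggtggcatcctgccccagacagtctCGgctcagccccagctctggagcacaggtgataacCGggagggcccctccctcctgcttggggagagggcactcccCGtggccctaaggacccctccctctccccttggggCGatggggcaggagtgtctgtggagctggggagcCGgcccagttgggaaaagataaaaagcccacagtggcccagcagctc
They lie at chr12:57128233-57128482 on the plus strand (LRP1), chr3:128493202-128493451 on the minus strand (GATA2), chr10:100735146-100735395 on the plus strand (PAX2), chr16:1078576-1078825 on the plus strand (SSTR5) and chr12:52834312-52834561 on the minus strand (KRT79). CG was found 20 times at LRP1, 24 at GATA2, 16 at SSTR5, 10 at PAX2 and 6 at KRT79, although the KRT79 stretch was 66.8% G and C. For GATA2 and PAX2 this is 1 of 2 listed starts inside the domain.

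The members ran from 30.1 to 277 kb wide, with a median of 43.3 kb and quartiles of 35.5 and 62.8 kb. Of the 340, 126 were at least 50 kb wide, 21 at least 100 kb and 3 at least 200 kb. The highest signal in a domain, in the authors' units, had a median of 181.5 against 87.5 in the 3450 shorter WT peaks, and 330 domains (97.1%) lay above the median of the whole WT list. Wide peaks in this list were therefore also tall, which is a description of how they were selected. The 3 members nearest the threshold were 30.07 kb (ASIC4, an acid-sensing channel gene), 30.11 kb (CYGB and PRCD) and 30.12 kb wide, and the 3 peaks just under it were 29.99, 29.98 (GLIS1) and 29.94 kb. TKO covered 96.2%, 86.2% and 97.7% of the first 3 and 87.8%, 91.3% and 77.6% of the others. D1240A covered 96.2%, 57.1% and 85.0% inside the threshold and 59.9%, 92.2% and 0% outside it, so peaks on either side of 30 kb overlapped in their values.

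Most of the domains remained in the other lists, least completely in D1240A. The median domain had 92.9% of its bases under TKO peaks, 78.2% under D1240A peaks and 91.6% under F1295A peaks. These comparisons share the WT list, so their values stand side by side and are not independent. Of the bases in all domains together, 90.5% were covered in TKO, 76.4% in D1240A and 85.8% in F1295A. F1295A covered more of a domain than D1240A in 270 of the 340, less in 61 and the same share in 9, with a median difference of 7.89 percentage points. The F1295A list thus covered more than the D1240A list in 79.4% of the domains (74.7 to 83.6). That interval covers counting error over domains only. The replicates of each form share a pooled list, so the interval is no replicate check of the substitutions. The part of read depth or peak calling in this shared direction was not tested.

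At least 50% of the bases were covered for 334 domains in TKO (98.2%, 96.2 to 99.3), 292 in D1240A (85.9%, 81.7 to 89.4) and 316 in F1295A (92.9%, 89.7 to 95.4). Over all 3790 WT peaks the shares were 85.3% in TKO, 43.0% in D1240A and 49.4% in F1295A. Among the shorter peaks they were 84.0%, 38.8% and 45.1%. The gap between wide and shorter peaks was smaller in TKO than in both substitution forms, but the TKO list is the longest, and with equal numbers of peaks (below) the gap was of like size in all 3: 88.8% against 40.7% in TKO, 84.7% against 36.7% in D1240A and 92.9% against 45.1% in F1295A. In all, 281 domains reached 50% in each of the other 3 forms, and 3 reached it in none. Those 3 lay at IGSF9, at CARD10 and at DAB2IP, and the last, a 36.2-kb domain at chr9:121557430-121593604 over a gene for a Ras GTPase-activating protein, had 29.4% covered in TKO, 21.6% in D1240A and 29.8% in F1295A.

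No covered base at all was found for 2 domains in TKO, 2 in D1240A and 4 in F1295A. Over all WT peaks the corresponding shares were 10.9%, 50.7% and 47.0%. A wider interval is more easily met by at least 1 base, and the domains were selected on width, so few zeros are what that choice favours. At the other end, at least 90% of the bases were covered for 213 domains in TKO (62.6%), 96 in D1240A (28.2%) and 182 in F1295A (53.5%). Over all WT peaks these shares were 50.4%, 19.4% and 30.8%. In all 3 forms 77 domains reached that level. In the plot of each domain by width, values under 50% in D1240A and F1295A were more frequent among narrower members. Domains with no covered base were not confined to these, as with 103.05 kb at LRP1 in TKO and 69.9 kb at KCNN3 in F1295A.

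**Figure D1:**
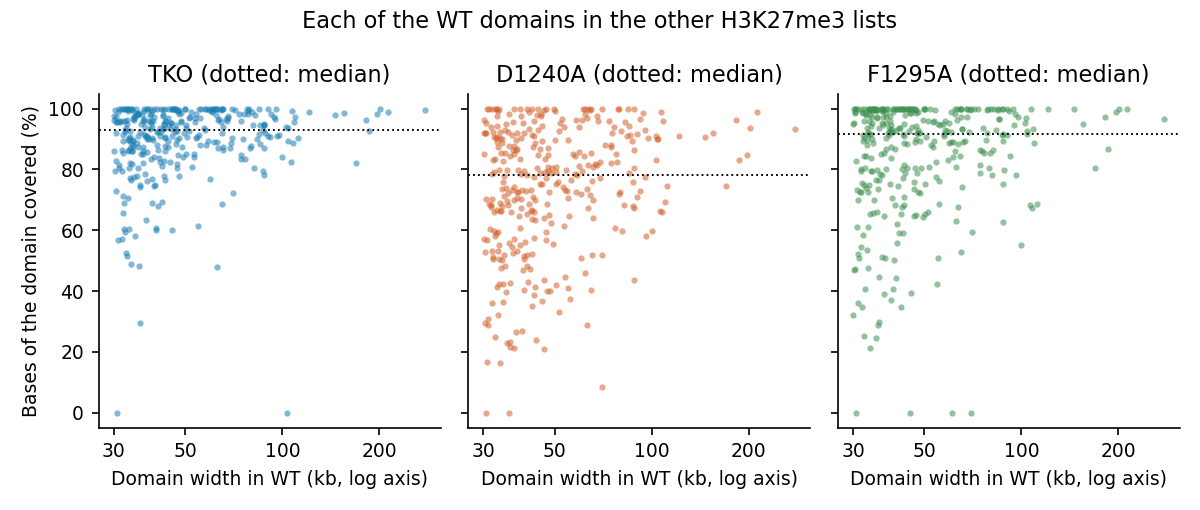
Each point is 1 of the 340 WT domains, with its width in WT (kb, log axis) against the share of its bases covered (%) in the TKO, D1240A or F1295A H3K27me3 list, and the dotted line is the median. The medians are 92.9%, 78.2% and 91.6%, and the domain of 103.05 kb at 0% in TKO is the one at LRP1.

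The share of WT peaks covered by at least 50% rose with width in D1240A and F1295A, without a step at 30 kb. For WT peaks under 5 kb, 12.2% were covered by at least 50% in D1240A and 14.6% in F1295A, and for those of 10 to 20 kb 53.7% and 64.2%. Peaks of 20 to 30 kb, just short of the members, stood at 72.6% and 84.0%. Among the members themselves the shares were 82.2% and 90.2% at 30 to 50 kb, 90.5% and 97.1% at 50 to 100 kb, and 100% in both forms for the 21 widest. In TKO the shares began at 73.2% under 5 kb and stayed between 97.4% and 99.0% from 20 to 100 kb, with 95.2% for the 21 widest, where the LRP1 domain is the missing one. The threshold of 30 kb thus cuts a continuous range.

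**Figure D2:**
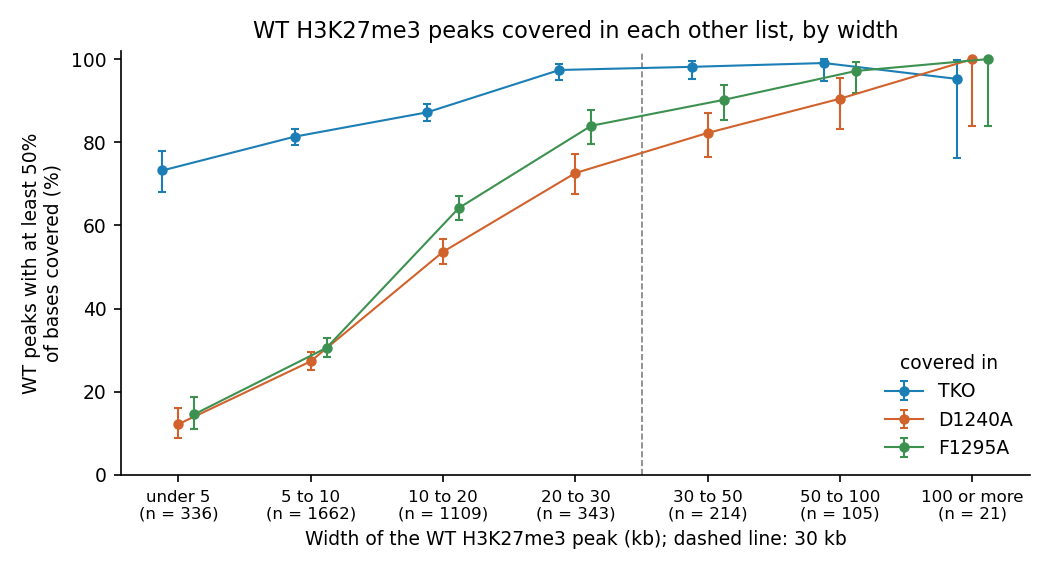
Share of WT H3K27me3 peaks (%) with at least 50% of their bases covered in the TKO, D1240A and F1295A lists, by width class (kb), with exact 95% intervals and the number of peaks under each class. D1240A and F1295A rise from 12.2% and 14.6% under 5 kb to 100% at 100 kb or more, while TKO is at 73.2% in the narrowest class.

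Width and height moved together, so shorter peaks of like height were set beside the domains. Among the 25% of WT peaks with the highest signal, 91.2% of 262 domains and 71.9% of 686 shorter peaks were covered by at least 50% in D1240A. In F1295A the shares in that class were 94.3% and 79.2%, and in TKO 98.9% and 93.4%. The domains in it still had the higher median of highest signal, 202.25 against 169.75, so height was not fully matched. The length of the other list also bears on coverage: TKO had 5881 peaks, D1240A 2188 and F1295A 2083. With the 2083 peaks of highest signal from each list, 302 domains (88.8%) were covered by at least 50% in TKO, 288 (84.7%) in D1240A and 316 (92.9%) in F1295A, and TKO then had 23 domains with no covered base. Ranked by total instead, 2083 peaks of each list gave 316 in TKO, 288 in D1240A and 316 in F1295A. TKO was thus above F1295A with whole lists, level with it by total and below it by highest signal, while its median covered share stayed above that of F1295A, at 92.4% against 91.6% in both rankings. D1240A was lowest in each case.

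The loss within a domain was greatest at its edges. Averaged over the domains in 20 bins along their width, the 2 outermost bins were covered to 70.4% in TKO, 47.8% in D1240A and 62.5% in F1295A, and the middle bins to 91.4%, 79.8% and 88.6%. Where a domain had a peak in the other list, the outer edge of that peak lay within 1 kb of the WT edge for 51.0% of 676 edges in TKO, 39.1% of 676 in D1240A and 44.9% of 672 in F1295A. It lay more than 1 kb inside the WT edge for 29.3%, 53.0% and 36.9%, and more than 1 kb outside it for 19.7%, 7.99% and 18.2%. Edges that had moved in by more than 1 kb did so by a median of 2.51 kb in TKO, 5.44 kb in D1240A and 5.06 kb in F1295A. Since the intervals were chosen as the widest of WT, edges inside the WT edge are what such a choice favours.

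**Figure D3:**
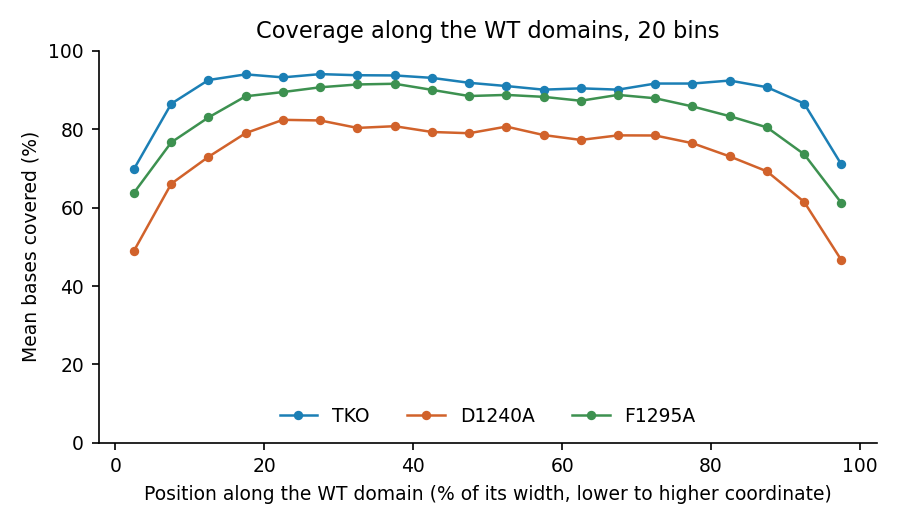
Mean share of bases covered (%) along the 340 WT domains, each divided into 20 bins from its lower to its higher coordinate (% of the width), for TKO, D1240A and F1295A. All 3 lines fall at both ends, and D1240A runs lowest, from 47.8% in the outermost bins to 79.8% in the middle.

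A domain often corresponded to more than 1 peak of another list. In TKO 164 domains met a single peak, 126 met 2 and 48 met 3 or more. In D1240A the numbers were 152, 131 and 55, and in F1295A 240, 83 and 13. The mean number of pieces was 1.70 in TKO, 1.76 in D1240A and 1.32 in F1295A, with at most 5 in any list for TKO and D1240A and 4 for F1295A. Pieces in D1240A were set farther apart, with a median largest gap of 5.40 kb against 2.90 kb in TKO and 4.62 kb in F1295A, and the widest gap was 37.5 kb. A piece of at least 30 kb was left in 210 domains in TKO, 229 in F1295A and 145 in D1240A. How the 2 replicates of a form were combined into 1 list is not given in the sources used here, so a gap in the mark and a difference between replicates cannot be told apart.

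The same width rule was applied to the other lists. It took 311 of 5881 peaks in TKO, 179 of 2188 in D1240A and 284 of 2083 in F1295A, the widest of which was 398 kb in F1295A. Followed back into WT, their median covered share was 97.8% for the TKO domains, 100% for those of D1240A and 98.4% for those of F1295A. Only 2 TKO, 6 D1240A and 3 F1295A domains had no base under a WT peak. The widest regions of each form were thus, in large part, also marked in WT.

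The domains were unevenly spread over the genome. Chromosome 1 held 77 (22.6%), against 16.1% of the WT peaks and 10.3% of the protein-coding genes. Chromosome 20 held 28 (8.24%), against 5.01% of the WT peaks. Chromosome 17 held 33 (9.71%), near its 9.13% of the WT peaks. Chromosomes 13 and 18 held none of the domains, but they had only 17 and 16 WT peaks. With 8.97% of all WT peaks being domains, such small numbers would hold few. The X chromosome held 2, one of them over the matrix gene BGN. Many stood next to each other: 117 of 319 gaps between neighbours were under 100 kb, and 69 groups joined by such gaps contained 186 domains. Names given to the groups below are those of protein-coding genes that the span of the group meets, gaps included.

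The largest group had 9 domains over 672 kb at chr1:3075600-3747649. It runs from PRDM16, a factor of brown fat and blood stem cells, over ARHGEF16 and MEGF6 to TP73. A group of 7 domains stood at chr17:79090856-79701105, a span that meets RBFOX3, the gene of the neuronal splicing factor NeuN. Another 7 stood at chr20:62952443-63499125 with BHLHE23 and CHRNA4, a nicotinic receptor subunit. A group of 6 at chr1:22542316-22886595 held the ephrin receptors EPHA8 and EPHB2 together with the complement genes C1QA, C1QB and C1QC. Neighbouring domains that share a gene are not separate observations of that gene.

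Of the 340 domains, 117 held at least 1 whole protein-coding gene record, 110 overlapped records in part, 64 lay within a single longer record and 49 met none. The medians covered in D1240A were 84.5% for the domains with a whole gene, 72.9% for those with partial overlap, 78.7% for those inside 1 gene and 72.7% for those with no gene. TKO ranged from 90.1% to 95.7% and F1295A from 89.4% to 94.4% over the same 4 classes. Whole records of 178 protein-coding genes were inside the domains, 0.891% of the 19974 on chromosomes 1 to 22 and X, and 410 genes (2.05%) were met by at least 1 base. A listed start lay inside a domain for 201 genes, 1.27% of the 15813 with such a start. The domains also held 241 whole lncRNA records and 44 whole miRNA records, 1.33% and 2.30% of those on these chromosomes.

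The widest domain, 277 kb at chr16:85123329-85400607, met part of GSE1, a gene for a coiled-coil protein, and several lncRNAs, and had 99.6% of its bases covered in TKO, 93.4% in D1240A and 96.6% in F1295A. RBFOX3 followed with a 212-kb domain inside its record, covered to 98.8%, 98.8% and 99.9% by a single peak of each list. CASZ1, a zinc finger factor of heart and neuron development, met a 201-kb domain, which was 1 peak in TKO and F1295A and 5 pieces in D1240A with 93.7% covered. The domain of 197 kb within CDH23, the cadherin of hair-cell tip links, was likewise 1 peak in F1295A (99.0%), 2 in TKO (98.2%) and 5 in D1240A (84.8%). LINGO1, a receptor component that limits axon growth, met a domain of 186 kb with 92.6%, 83.0% and 86.7% covered in the order TKO, D1240A and F1295A. The domain of SOX8, SSTR5 and C1QTNF8 had 182 kb and was covered to between 96.3% and 97.2% in all 3 forms.

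The next domains in width were kept less evenly. The one of 169 kb over BAIAP2 and AATK was covered to 82.1% in TKO, 74.6% in D1240A and 80.6% in F1295A, with a gap of 19.3, 19.2 and 19.2 kb in each, and it carried H3K4me3 in all 4 forms. The 155-kb domain of DLX3 and DLX4, homeobox genes of skin, teeth and placenta, was covered to 98.6%, 92.1% and 95.1%. NFASC and CNTN2, 2 genes for immunoglobulin-type adhesion molecules of axons, met a 146-kb domain covered to 98.1%, 90.7% and 100%. Among the 12 widest, the lowest shares were at FIBCD1, a chitin receptor gene, whose 112-kb domain had 68.5% in F1295A and 74.4% in D1240A, and at COL13A1, whose 110-kb domain had 69.4% in D1240A. Every one of these 12 domains was covered by more than 68% in each other form.

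Genes of body patterning were the first group looked at. A single domain, 121 kb at chr12:53943493-54064800, held 8 whole HOXC genes and part of HOXC13, and it accounts for all 9 of the 39 HOX genes that met a domain. It was 1 peak in WT and F1295A, 2 peaks in TKO with a gap of 1.41 kb, and 4 peaks in D1240A with gaps of up to 3.48 kb. Coverage was 98.8% in TKO, 91.1% in D1240A and 100% in F1295A. No HOX gene outside the HOXC cluster met a domain, and the 9 share 1 domain, so they count as 1 observation.

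Of 93 other homeobox and PAX genes, 8 met a domain and 4 lay wholly inside one, against 2.05% and 0.891% of all genes. Those 4 were DLX3 and DLX4, PAX2 in a domain of 102.7 kb, and TLX1, a factor of spleen development, in one of 43.1 kb. DLX3 and DLX4 share 1 domain and count as 1 observation. The PAX2 domain was covered to 93.9% in TKO, 83.0% in D1240A and 95.2% in F1295A, and the TLX1 domain to 76.5%, 57.4% and 88.7%. Among 91 genes of the T-box, SOX, GATA, FOX and bHLH families 5 were inside, namely SOX8, GATA2, GATA5, ATOH8 and BHLHE23. The GATA5 domain, 87.7 kb wide, was covered to 94.8%, 100% and 99.9%, while that of ATOH8, 66.7 kb wide, was covered to 96.8%, 81.9% and 89.5%. Of 39 WNT and Frizzled genes WNT7B lay inside a domain of 87.0 kb, covered to 93.0%, 89.3% and 100%, and WNT4 met another.

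Ion channels came next. Of 71 voltage-gated channel genes 10 met a domain (14.1%) and 3 lay inside one (4.23%), against 2.05% and 0.891% of all genes. Long genes have more bases with which to meet a domain, and the lists were not matched on gene length. CACNA1G, a T-type calcium channel gene, lay in a domain of 83.5 kb with 90.05% covered in TKO, 90.9% in D1240A and 93.1% in F1295A, and SCN4B, a sodium channel subunit, in one of 44.2 kb with 89.4%, 93.1% and 100%. Both were covered as well in D1240A as in TKO, whereas the 34.7-kb domain at CACNG2 had 96.4% in TKO and 51.9% in D1240A. CACNG2 is one of several members met only in part that are named after their values were seen.

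Genes of adhesion, matrix and axon guidance met domains mostly in part, and the part of record length in this was not tested. Met by a domain were 2 of 54 cadherin and non-clustered protocadherin genes (3.70%), 3 of 26 integrins (11.5%), 7 of 54 immunoglobulin-type adhesion genes (13.0%), 10 of 79 collagen, laminin and matrix genes (12.7%) and 8 of 67 guidance genes (11.9%), against 2.05% of all genes. Whole records inside a domain were 0, 1, 1, 1 and 0 in that order, few enough to be near the 0.891% of all genes. ITGA5, the fibronectin receptor subunit, lay in a 48.5-kb domain covered to 95.5% in TKO, 62.4% in D1240A and 72.1% in F1295A. BGN, the small proteoglycan biglycan, lay in one of 108 kb on the X chromosome covered to 88.8%, 65.9% and 67.2%. KIRREL2, a relative of nephrin, had 34.2 kb, covered to 86.1%, 73.5% and 79.3%. At all 3 genes D1240A and F1295A covered less than TKO. The medians over all domains have the same order, 92.9% in TKO, 78.2% in D1240A and 91.6% in F1295A. Not every member of these lists did: the domain at AGRN had 65.6% in TKO, 83.2% in D1240A and 75.4% in F1295A.

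The keratins show a contrast within 1 family. KRT80 lay in a 49.95-kb domain covered to 100%, 99.3% and 99.9% in the order TKO, D1240A and F1295A. KRT78 and KRT79 shared a domain of 43.6 kb, of which TKO covered 95.9% and F1295A 78.9% but D1240A 23.9%. The listed start of KRT79 lay in the part that D1240A covered, and that of KRT4, also met by the domain, did not. Both domains are on chromosome 12, and 4 of 54 keratin genes (7.41%) met a domain, against 2.05% of all genes. KRT4, KRT78 and KRT79 share 1 domain, so they count as 1 observation.

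Lists of blood cell and housekeeping genes met few domains. Of 25 B cell genes PAX5, the factor that holds B cell identity, was met in part by a domain of 35.7 kb, covered to 98.1% in TKO, 68.5% in D1240A and 97.2% in F1295A. None of 20 plasma cell genes, 20 housekeeping genes, 23 T, NK and myeloid genes, 36 Polycomb and H3K36 methylation genes or 13 genes of D cyclins, MYC and CDK inhibitors met a domain. A list of 20 would hold 0 or 1 genes met at the share over all genes, so these zeros are near the background. They give no check of the cell type label. Of 63 Notch, BMP, FGF and SHH signal genes 1 was met (1.59%), against 2.05% of all genes. It was IHH, met in part, with 95.9% of its domain covered in TKO, 40.2% in D1240A and 92.0% in F1295A.

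**Figure D4:**
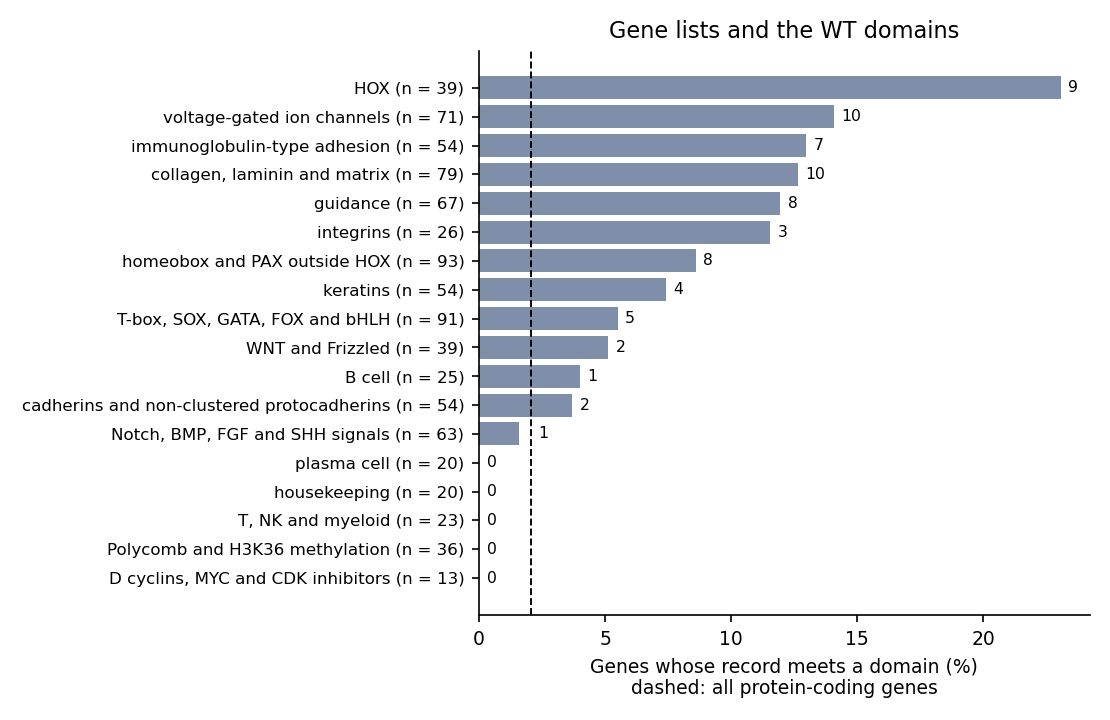
Share of the genes in each of 18 lists (%) whose record meets a WT domain by at least 1 base, with the count at the end of each bar, the list size in brackets and a dashed line at the 2.05% of all protein-coding genes. HOX genes stand at 9 of 39 through 1 domain, voltage-gated ion channels at 10 of 71 and plasma cell genes at 0 of 20.

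Genes in no list made up most of the 178, and they are named here by what they encode, a grouping made after the domains were seen. Tissue-restricted enzymes and hormones included INS and TH, in 1 domain of 78.2 kb covered to at least 98.2% in every form, and the growth hormone cluster with GH1, GH2, CSH1 and CSHL1, in 45.1 kb covered to at least 95.2%. The pepsinogen genes PGA3, PGA4 and PGA5 shared 55.05 kb, and the mast cell tryptases TPSG1, TPSB2, TPSAB1 and TPSD1 lay in 2 neighbouring domains of 78.8 and 68.9 kb. Several of these are near-identical copies, to which short reads cannot always be assigned, and the part of that in their values was not tested. The troponin genes TNNT2 and TNNI1 of muscle lay with LAD1 in 1 domain of 90.2 kb, covered to 91.5% in D1240A, and MYMK, which drives myoblast fusion, in one of 73.5 kb, covered to 96.1%. Genes of other kinds, namely DBH, ACE, CRHR1, NTSR1, ADORA1, OPN4 and LIF, also lay wholly inside domains.

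Domains with no counterpart in a list were few and are taken one by one. At chr12:57123167-57226216 a domain of 103.05 kb held LRP1 and met NXPH4, with a highest signal of 624.5. D1240A covered 90.9% of it in 3 peaks and F1295A 96.9% in 1 peak, whereas TKO had no base covered, and the nearest TKO peak, 4.30 kb wide, ended before it at 57119441. This is the 1 domain of at least 100 kb missing from any list. H3K4me3 at the LRP1 start was present in all 4 forms, 3.03 kb wide in WT, 3.20 kb in TKO, 3.87 kb in D1240A and 3.24 kb in F1295A, so the start printed above carried an H3K4me3 peak in TKO without H3K27me3 and in the other forms with it. A further H3K4me3 peak, by the NXPH4 side, was found in WT, D1240A and F1295A and not in TKO. It was weak, with a highest signal above that of 0.627%, 1.66% and 6.01% of the peaks in those lists.

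KCNN3, the gene of a calcium-activated potassium channel, met 2 domains of 69.9 and 60.8 kb at chr1:154691162-154761101 and chr1:154791316-154852155. TKO covered 90.3% and 100% of them, D1240A 8.28% and 96.2%, and F1295A 0% of both. D1240A kept 5.79 kb of the first, F1295A kept none of either, and the second was missing from F1295A alone. Beside or between them, as the map of peaks shows, each H3K27me3 list had other peaks. No H3K4me3 peak lay in either in any form.

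At chr1:159927060-159957725 a domain of 30.7 kb at IGSF9, a cell adhesion gene of synapses, and SLAMF9 was in WT only, with 0% covered in the other 3 lists. An H3K4me3 peak of 4.40 kb that reached its edge was also in WT only. The remaining domains without a counterpart were 45.0 kb at chr1:16693495-16738536, with no protein-coding gene and the pseudogene ESPNP, covered to 95.2% in TKO, 75.2% in D1240A and 0% in F1295A, and 35.9 kb at CARD10 (chr22:37492144-37528091), covered to 48.4%, 0% and 29.0%. Of the 4 zeros in F1295A, 3 lay in the 12 Mb of chromosome 1 that start at 150 Mb, and without that stretch 1 remained. In the same way TKO and D1240A each kept 1 of 2 without it.

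**Figure D5:**
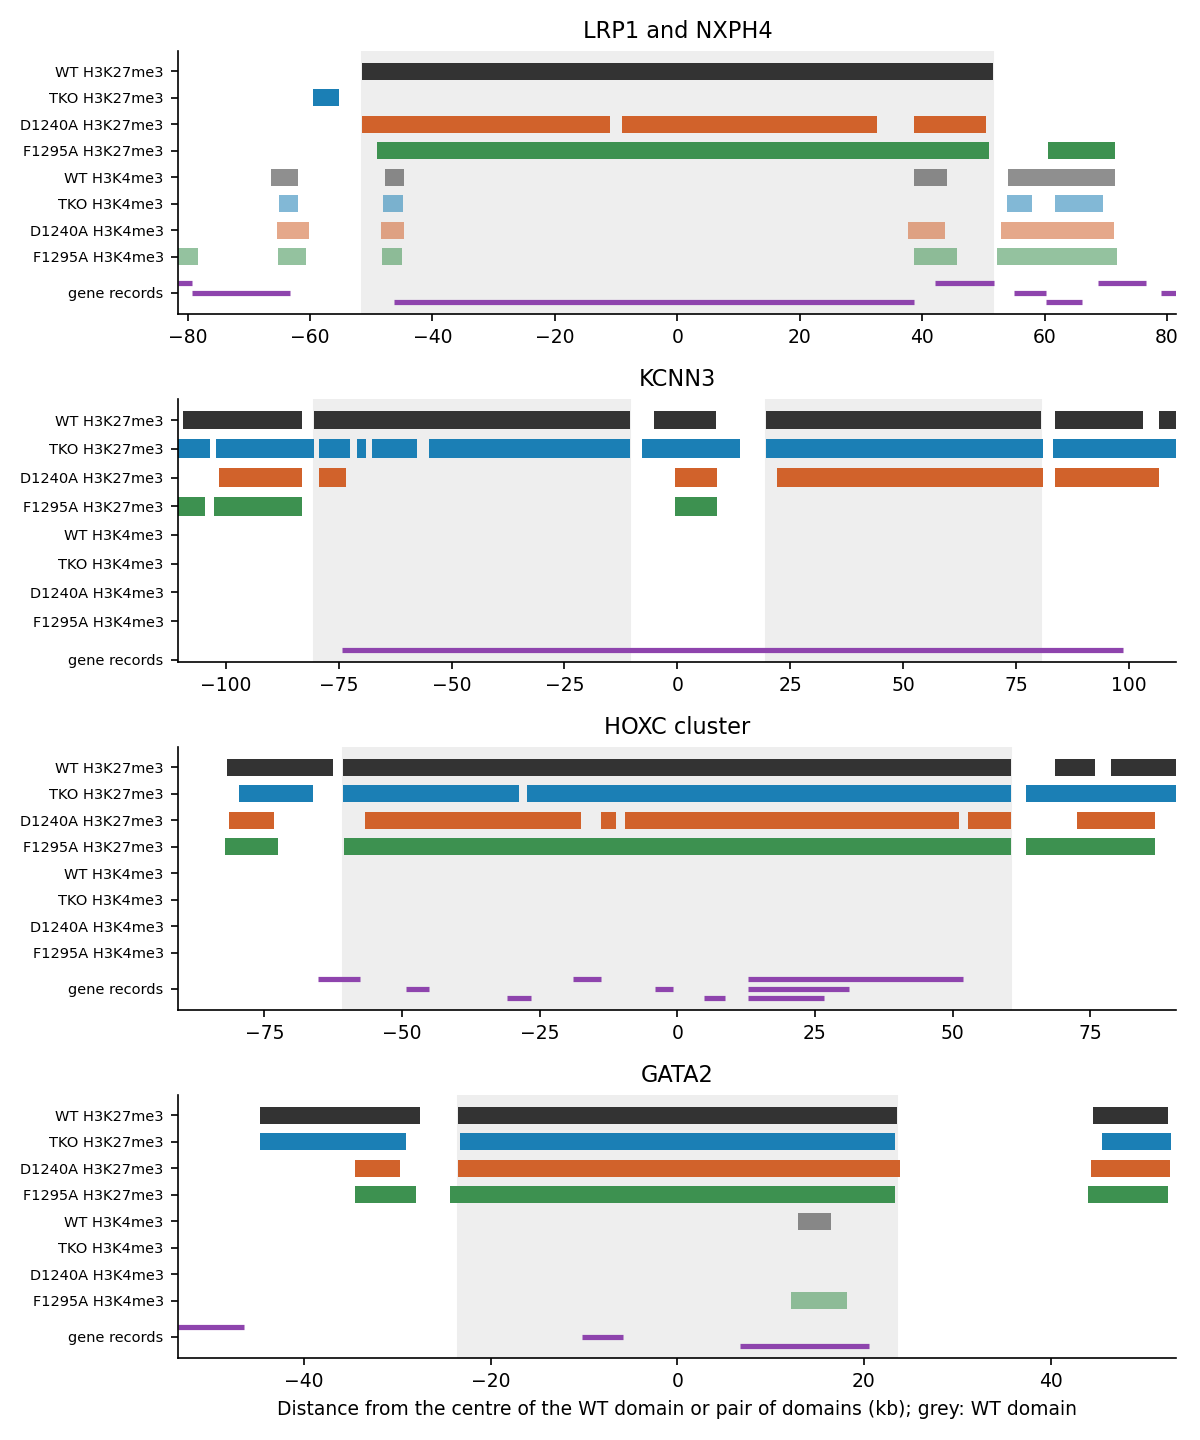
Peaks of the 8 lists around 4 WT domains or pairs of domains, drawn as bars by distance from the centre (kb), with H3K27me3 in full colour, H3K4me3 in pale colour, the WT domain in grey and protein-coding gene records as lines below. The TKO row is empty over the LRP1 domain, the F1295A row over both KCNN3 domains, D1240A has 4 pieces over HOXC, and GATA2 has H3K4me3 in WT and F1295A.

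The substitutions also differed at domains that neither had lost. The largest excess of F1295A over D1240A was at ZDHHC1 and HSD11B2, at SLC2A6, at PLEKHA6 and at PEBP4. At PLEKHA6, a domain of 34.5 kb, F1295A covered 100% and D1240A 36.3%, and at SLC2A6, a glucose transporter gene in 40.01 kb, 100% and 40.4%. The opposite was seen at SULT4A1, 33.1 kb, with 94.5% in D1240A and 53.5% in F1295A, and in a 42.8-kb domain at chr14:104355024-104397797 that met no protein-coding gene, with 87.3% and 59.0%. TKO covered 100% of the SULT4A1 domain and 95.1% of the latter. These extremes were selected for their difference and are a description.

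H3K4me3 comes from other libraries and did not enter the choice of the domains. A base of an H3K4me3 peak lay in 19 domains in WT (5.59%), 13 in TKO (3.82%), 18 in D1240A (5.29%) and 26 in F1295A (7.65%). Over all WT H3K27me3 peaks the shares were 4.09% in WT, 2.48% in TKO, 3.72% in D1240A and 4.99% in F1295A. Intervals of the domains, such as 3.17 to 8.24 in D1240A and a lower bound of 5.06 in F1295A, included the background in WT, TKO and D1240A and lay just above it in F1295A. Per base the domains had less than shorter peaks, 0.274% of the bases against 0.987% in WT. Of the 340, 313 had none in any form, 13 had H3K4me3 in all 4 forms and 6 in F1295A only.

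The 13 with H3K4me3 in every form included LRP1, SAMD11, BAIAP2 and AATK, SLC17A7, NTNG2, ETV3, PEX10, SLC12A5 and ZNF467. SAMD11 had the most bases after LRP1 in WT, with 5.28 kb in WT, 4.10 kb in TKO, 5.61 kb in D1240A and 9.57 kb in F1295A, in a domain of 36.1 kb covered to between 87.7% and 93.8%. At ZMIZ1, a gene for a coactivator, H3K4me3 spanned 5.13 kb in WT, 4.45 kb in D1240A and 5.28 kb in F1295A and was not found in TKO. ZNF423, a zinc finger factor, showed the same pattern with 3.81, 4.24 and 5.06 kb. TKO, whose H3K4me3 list was the shortest with 7396 peaks, had no domain of its own with the mark.

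GATA2 differed in H3K4me3 while its H3K27me3 was alike. Its domain of 47.0 kb at chr3:128449187-128496166 also holds DNAJB8 and was 1 peak in each list, covered to 99.1% in TKO, 100% in D1240A and 99.7% in F1295A. H3K4me3 spanned 3.59 kb in WT and 6.01 kb in F1295A, and no peak was listed in TKO or D1240A. Both H3K4me3 peaks were among the weakest of their lists, with a highest signal above that of 1.18% of the WT peaks and 2.84% of the F1295A peaks. The printed start lies outside both peaks, and both hold the other listed start.

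H3K4me3 and H3K27me3 of the same form overlapped in part within the domains. By construction the 50.5 kb of WT H3K4me3 in the domains lay under WT H3K27me3. In TKO 65.2% of 22.8 kb of H3K4me3 lay under TKO H3K27me3, in D1240A 69.6% of 51.1 kb and in F1295A 74.1% of 86.1 kb, each below the 90.5%, 76.4% and 85.8% of all domain bases that the form covered. At the outside, an H3K4me3 peak lay within 5 kb of 6.32% of 680 domain edges in WT against 4.67% of 6900 edges of shorter peaks, with intervals of 4.61 to 8.42 and 4.18 to 5.19 that overlap.

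Gene starts inside the domains were covered about as often as other bases of the domains, or somewhat less. Of the 201 genes with a listed start in a domain, the start lay in an H3K27me3 peak for 179 in TKO (89.1%), 152 in D1240A (75.6%) and 165 in F1295A (82.1%). Among all 1007 genes with a start in any WT peak the shares were 77.9% in TKO, 52.1% in D1240A and 55.8% in F1295A. The start was in a peak of all 3 other forms for 144 genes and of none for 15. Those 15 included PEX10, SLC12A5 and ZNF423, whose starts had H3K4me3 within 1 kb in WT. IGSF9, SLAMF9, POU2F2, a B cell factor, C1QA, BHLHE23, METRNL and STRA6 were also among them and had no such H3K4me3 in any form. LHX3 and LMX1B, homeobox genes, had their start in a peak in D1240A and F1295A and not in TKO. H3K4me3 within 1 kb was found for 11 of the 201 in WT (5.47%), 8 in TKO (3.98%), 9 in D1240A (4.48%) and 13 in F1295A (6.47%). For the 813 genes with a start in a shorter WT peak the shares were also low, 10.3%, 6.27%, 8.61% and 11.9%. Of the 14955 genes with a start in no WT peak, 48.3% had it in WT.

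The promoters of these genes had, in the median, more G and C but fewer CG than those with a start in no WT peak. Promoters in shorter WT peaks did too. In windows from 250 bases before to 50 after the start, the median share of G and C was 66.3% for starts in domains, 64.7% in shorter WT peaks and 62.3% in no WT peak. A window counted as CpG-rich where G and C made up at least 50% and CG was at least 0.6 of the number its composition gives. This held for 45.8% of the 201 (38.7 to 52.9), 47.2% of 813 genes in shorter peaks and 63.0% of 14955 genes in none, or 62.1% of all. The median number of CG in these windows was 17 for starts in domains and 21.5 over all genes. The stretches printed above are shorter by the 50 bases after the start, so their counts are not set against these medians. TATAAA, searched on both strands with no other motif overlapping it in the search, was in 12.4% of the windows in domains, 9.84% in shorter peaks and 12.4% of all. A gene with several starts can stand in more than 1 class, and a match is a description and no sign of a bound factor.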

How the data were processed

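The authors deposited peak lists, 1 per form and mark. The submitters' processing notes name Bowtie2 2.4.5, the peak caller SEACR 1.3, Trimmomatic 0.36, FastQC 0.11.4 and GRCh38. Mode, control and threshold of calling, and how replicates were joined, are not given in the sources used. Each deposited peak has a highest signal (coverage) and a total, the latter treated as a score for H3K27me3, and their scaling is not given. In 11 WT, 96 TKO, 91 D1240A and 73 F1295A H3K27me3 peaks (0.290%, 1.63%, 4.16% and 3.50%) the total exceeded width times highest signal, so it is not a sum over the listed interval, and no mean signal is used. This held for none of the 340 domains.

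Covered bases, pieces and overlaps of at least 1 bp were computed with pandas 2.3.3, scipy 1.17.1 and numpy 2.4.6 under Python 3.11.15 and plotted with matplotlib 3.10.9, after a check on made-up intervals. Genes, starts (15813 of 19974 genes matched) and promoters came from RefSeq tables of GRCh38.p14. A gene was inside where its whole record lay in a domain. The members and the 18 gene lists, whose 863 genes all matched, were chosen with earlier results of these data known. Named were the 12 widest domains, up to 8 domains with no covered base or over 90% per form, the 4 largest differences between D1240A and F1295A each way, the domains nearest 30 kb, the 8 with the most WT H3K4me3, and up to 4 whole genes per list. Other genes were named after their values were seen. A few genes that the rule names are not reported here.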

Additional observations from a re-analysis of the deposited data

How the results depend on the processing

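Of 113 alternatives over 18 results, 76 stayed within the spread set for them and 37 moved. No paired analysis was possible because both replicates of a form share 1 list, and for the same reason no replicate could be left out. A minimum width of 20 kb gave 683 domains and one of 50 kb gave 126. Covered by at least 50% were then 668 and 124 in TKO, 541 and 116 in D1240A and 604 and 123 in F1295A; with no covered base 4 and 1, 27 and 0, and 20 and 2. Requiring 90% of the bases gave 213 in TKO, 96 in D1240A and 182 in F1295A. The median share covered was 94.8% in TKO and 82.2% in D1240A at 50 kb, 88.7% in F1295A at 20 kb, and 97.2% in TKO with peaks within 5 kb joined. Domains with no covered base were 5 in TKO at equal peak numbers by total signal, and 23 in TKO and 6 in D1240A by highest signal, an alternative chosen after seeing the data. They were 27 in D1240A and 13 in F1295A with the stronger 50% of the list, and 1 in each form without the 12 Mb of chromosome 1 from 150 Mb. Genes inside were 410 by any base, 380 by 1 gene end, 269 at 20 kb and 85 at 50 kb. At 50 kb H3K4me3 was in 6 domains in WT, TKO and D1240A and 11 in F1295A. At equal numbers by highest signal 88.8%, 84.7% and 92.9% of the domains and 40.7%, 36.7% and 45.1% of the shorter peaks were covered by at least 50% in TKO, D1240A and F1295A. Depth is unknown, and the lists cannot separate a weaker mark from a shallower library.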
